A study of Neurospora crassa with 86 samples.

Results

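Glutamine synthetase and glutamate synthase are the enzymes that bring ammonium into glutamine and glutamate. The 3 genes described here are gln-1 (NCU06724) and gln-2 (NCU04856), which encode glutamine synthetases of the filamentous fungus Neurospora crassa, and en(am)-2 (NCU01744), which encodes glutamate synthase. They were chosen by name, not by their levels, and make up 3 of the 9598 entries of the joint expression table. All 3 passed the filter on low values (a level of at least 1 in 3 or more libraries), as did 8558 entries in all.

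Glutamine synthetase joins ammonium to glutamate with the use of ATP and so makes glutamine. Glutamate synthase moves the amide nitrogen of glutamine to alpha-ketoglutarate and so makes glutamate, and together they form a cycle that runs beside the direct assimilation of ammonium by NADP-dependent glutamate dehydrogenase, the product of am. In N. crassa glutamine is known as a main signal of nitrogen repression, in which the GATA factor NIT2 activates genes for the use of other nitrogen sources and NMR binds NIT2 and holds it back.

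RNA was sequenced from mycelia of 86 cultures in 27 combinations of strain and medium. Mycelia were grown from conidia for 24 h at 25 °C in Vogel's minimal medium with 2% sucrose, washed without nitrogen or, for the mannose and carbon starvation media, without carbon, and kept for 4 h in the test medium. The wild type was FGSC 2489, with 47 libraries in 14 media, and each group had 3 libraries except for wild type, with 5 in full medium and 6 without nitrogen. The replicates are labelled as biological, and all groups were grown in constant light with shaking.

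The full medium, to which the other media were compared, held 2% sucrose and 25 mM NH4NO3. Carbon starvation lacked sucrose, mannose medium held 2 mM mannose in its place, and both kept 25 mM NH4NO3. Nitrogen starvation kept 2% sucrose with no nitrogen source. The other media held 2% sucrose and a single source of nitrogen. Arginine was given at 344 mM, glycine at 200 mM and alanine at 112 mM, and NH4Cl, NaNO3 and the remaining amino acids (tryptophan, proline, isoleucine, glutamine and glutamate) at 50 mM. The amounts therefore differed as well as the compounds. The Δnit-2 strain (15 libraries) was grown in full medium, nitrate, isoleucine, proline and tryptophan, and the Δamn-1 strain (12 libraries) in mannose, isoleucine, proline and tryptophan. The Δnmr strain (6 libraries) was in full medium and nitrogen starvation, and the libraries labelled Δnit-4 (6) were in nitrate and nitrogen starvation. nit-4 encodes the activator of the nitrate genes and amn-1 a transcription factor.

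Depth, roughly estimated from the deposited bounds, ran from 6890000 to 19110000 fragments per library. The estimate is rough because fragment numbers derived from the bounds did not follow FPKM for every gene. nit-2 transcript was at 3.30 to 6.61 FPKM in the Δnit-2 libraries and at 14.0 to 177 in wild type, whereas in those labelled Δnit-4 the nit-4 transcript (2.72 to 8.56) overlapped wild type (2.64 to 8.45), so they are named by their label. In the 39 libraries of ammonium, nitrate, isoleucine, proline and tryptophan, mitochondrial genes took 0.0452 to 0.174% of FPKM, and in the 47 others 0.00285 to 0.0258%. The 5 conidial markers (con-6, con-8, con-10, con-13 and eas) summed to 33.1 to 113.9 FPKM in wild type in full medium, where con-13 was at 0 in 1 library. The 6 nitrogen-starved wild type libraries stood apart in sets of 3, with sums of 50.1 to 133 in those numbered 1, 4 and 5 and 6351 to 7260 in those numbered 2, 3 and 6. In bulk RNA such as this, fewer cells of a type and less RNA per cell cannot be told apart.

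The genes lie on separate chromosomes of assembly NC12. gln-1 spans chromosome V from 4393869 to 4397472 (3604 bases, 1 annotated transcript), gln-2 spans chromosome IV from 485244 to 488059 (2816 bases, 2 transcripts), and en(am)-2 spans chromosome II from 2567182 to 2576313 (9132 bases, 2 transcripts). No annotated gene overlapped any of them, and the nearest neighbour of gln-2, NCU04857, was 61 bases away. The authors' bounds were narrow for all 3, with a half-width of at most 6.84% of the value for gln-1, 4.60% for gln-2 and 6.17% for en(am)-2.

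Levels are given as FPKM, fragments per kilobase of transcript scaled to the fragments of the library, so that genes can be compared with each other. Among the 9598 entries gln-1 ranked between 13 and 2653 over the 86 libraries, gln-2 between 18 and 847, and en(am)-2 between 338 and 4874. Over the 27 group means gln-1 varied most, 130-fold, against 35.6-fold for gln-2 and 11.7-fold for en(am)-2. Over the 14 wild type media these ranges were 43.4-fold, 19.5-fold and 7.70-fold.

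Differences were tested with limma on log2(FPKM + 1) and are written as the first group minus the second. A difference passed, and is called a rise or a fall, at an adjusted p under 0.05 and a size of at least 1 on the log2 scale. Standard errors of differences of 3 against 5 libraries were 0.17 for gln-1, 0.20 for gln-2 and 0.21 for en(am)-2, and those of 3 against 3 libraries were 0.19, 0.22 and 0.24. The median over all tested genes lay within 0.1 of 0 except in mannose against full medium, where it was 0.136 (0.0522 under median-ratio scaling).

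gln-1 rose in 3 of 13 media and fell in 6, relative to full medium. In full medium its 5 wild type libraries held 615, 602, 593, 538 and 593 FPKM. In glycine they held 4026, 4073 and 4317, in alanine 1365, 1467 and 1362, and in glutamate 1305, 1267 and 1268. All 9 lay above every full medium library. gln-1 rose 7.04-fold in glycine (log2 difference 2.81, adjusted p = 2.71e-23), 2.38-fold in alanine (1.25, adjusted p = 1.80e-08) and 2.18-fold in glutamate (1.12, adjusted p = 2.47e-07). In arginine it was at 825, 909 and 741, above full medium without overlap, and the difference of 0.48 was under the size limit. In glycine 3 of the 5 conidial markers (con-8, con-10 and con-13) were above full medium without overlap, with con-8 at 120 to 166 FPKM against 2.60 to 4.97, while eas was below it (1.56 to 4.26 against 23.4 to 85.1), and the sums were 166 to 255. Their part in the glycine result was not tested. The sums were 15.0 to 19.6 in alanine and 12.6 to 16.1 in arginine, below full medium. In each, 1 of the 5 markers was above full medium without overlap. These were con-8 in alanine (6.69 to 9.38) and con-10 in arginine (6.51 to 10.39, against at most 3.21). eas was below full medium without overlap in alanine (4.335 to 7.412) and arginine (2.865 to 3.189), as were con-6 and con-8 in arginine. The part of these markers was not tested.

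gln-1 fell in 6 media. The lowest wild type levels were in mannose, 90.3, 114 and 81.9 FPKM, and under carbon starvation, 159, 162 and 163. These were 6.17-fold and 3.65-fold below full medium (log2 differences -2.62, adjusted p = 3.94e-22, and -1.86, adjusted p = 1.89e-15). Both media lacked sucrose and also carried more of the conidial markers, with all 5 of 5 above full medium in every library and sums of 7394 to 14580 in mannose and 26240 to 34850 without carbon. The part of this in the gln-1 result was not tested. On tryptophan gln-1 was at 176, 158 and 169, on isoleucine at 208, 275 and 278, and with proline as source at 257, 263 and 259. The falls were -1.81 in tryptophan (adjusted p = 8.74e-15), -1.22 in isoleucine (adjusted p = 4.10e-09) and -1.18 in proline (adjusted p = 8.67e-09). Conidial sums were also above full medium, at 154 to 365 in tryptophan, 405 to 824 in isoleucine and 141 to 258 in proline. In that order, 2, 2 and 1 of the 5 markers were above it without overlap. con-6 was below full medium (1.11 to 24.35) without overlap in tryptophan (0.59 to 0.78) and proline (0.78 to 0.95). The part of these markers was not tested.

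Under nitrogen starvation gln-1 was at 431, 182, 194, 372, 385 and 175 FPKM, all below full medium, with the libraries numbered 1, 4 and 5 above the other 3. The fall over all 6 was -1.12 (SE 0.14, adjusted p = 2.52e-10). It depended on the set of libraries: with those labelled 1 to 3 alone it was -0.67 and did not pass, and without the library numbered 6 in the joint table it was -0.999, just short of the limit. In scaled per-sample values gln-1 was at 368 to 423 in the libraries labelled 1 to 3, with conidial sums of 55.7 to 145.6, and at 190 to 208 in those with higher labels, with conidial sums of 8444 to 9169.

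In nitrate (295, 334 and 304 FPKM), ammonium (335, 325 and 273) and glutamine (431, 363 and 399), gln-1 lay below full medium without overlap but within the size limit, with differences of -0.92, -0.92 and -0.57. With the per-sample values as deposited, nitrate and ammonium passed at -1.16 and -1.17. From high to low, mean gln-1 ran glycine, alanine, glutamate, arginine, full medium, glutamine, nitrate, ammonium, nitrogen starvation, proline, isoleucine, tryptophan, carbon starvation and mannose. Libraries of neighbours in this order did not overlap in 8 of 13 cases. The neighbours that overlapped were nitrate with ammonium, ammonium with nitrogen starvation, nitrogen starvation with proline, proline with isoleucine, and tryptophan with carbon starvation.

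gln-2, the other glutamine synthetase gene, rose in 8 of 13 media and fell in 1. In full medium it was at 317, 355, 310, 381 and 380 FPKM. On proline it reached 2382, 2397 and 2527, the highest of any wild type group, and on isoleucine 1791, 1603 and 2054. These were 6.98-fold and 5.21-fold above full medium (log2 differences 2.81, adjusted p = 8.54e-20, and 2.37, adjusted p = 1.38e-16). gln-1 fell in the same proline and isoleucine libraries, whose conidial sums were above those of full medium as given beside that fall.

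The alanine libraries held 1503, 1376 and 1374 FPKM of gln-2 and the glycine libraries 1173, 1239 and 1018. Here gln-2 rose together with gln-1, by 2.02 in alanine (adjusted p = 5.76e-13) and 1.71 in glycine (adjusted p = 8.85e-12). In nitrate gln-2 was at 1168, 976 and 1066 and in tryptophan at 823, 890 and 890, rises of 1.62 (adjusted p = 1.98e-10) and 1.32 (adjusted p = 2.16e-08). Conidial sums in nitrate were 141 to 267, above full medium, as were con-8 and eas without overlap. con-6 was below it without overlap (0.40 to 0.74 against 1.11 to 24.35). Without nitrogen it was at 891, 1023, 1018, 1771, 1441 and 811, a rise of 1.68 (SE 0.16, adjusted p = 5.95e-14), again with gln-1 lower in the same libraries.

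Arginine gave 690, 609 and 1549 FPKM of gln-2. The library numbered 3 stood far above the others, and the rise of 1.32 (adjusted p = 1.95e-08) rested on it, since without it the difference was 0.90 and did not pass. Glutamate (661, 654 and 734) came to 0.97 and ammonium (658, 511 and 611) to 0.76, both above full medium without overlap and under the size limit. The glutamate difference passed in several other settings, at 1.09 with per-sample values as deposited and 1.11 with the full medium libraries labelled 1 to 3.

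The fall of gln-2 was under carbon starvation, with 159, 109 and 108 FPKM (-1.49, adjusted p = 6.04e-10). In mannose (253, 157 and 223) and glutamine (171, 260 and 211) it was below full medium without overlap, at -0.74 and -0.72. With the full medium libraries labelled above 3, mannose passed at -1.03. In order of its wild type means gln-2 ran proline, isoleucine, alanine, nitrogen starvation, glycine, nitrate, arginine, tryptophan, glutamate, ammonium, full medium, glutamine, mannose and carbon starvation. Neighbours were separate in 5 of 13 cases: proline from isoleucine, isoleucine from alanine, tryptophan from glutamate, ammonium from full medium and full medium from glutamine.

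**Figure D1:**
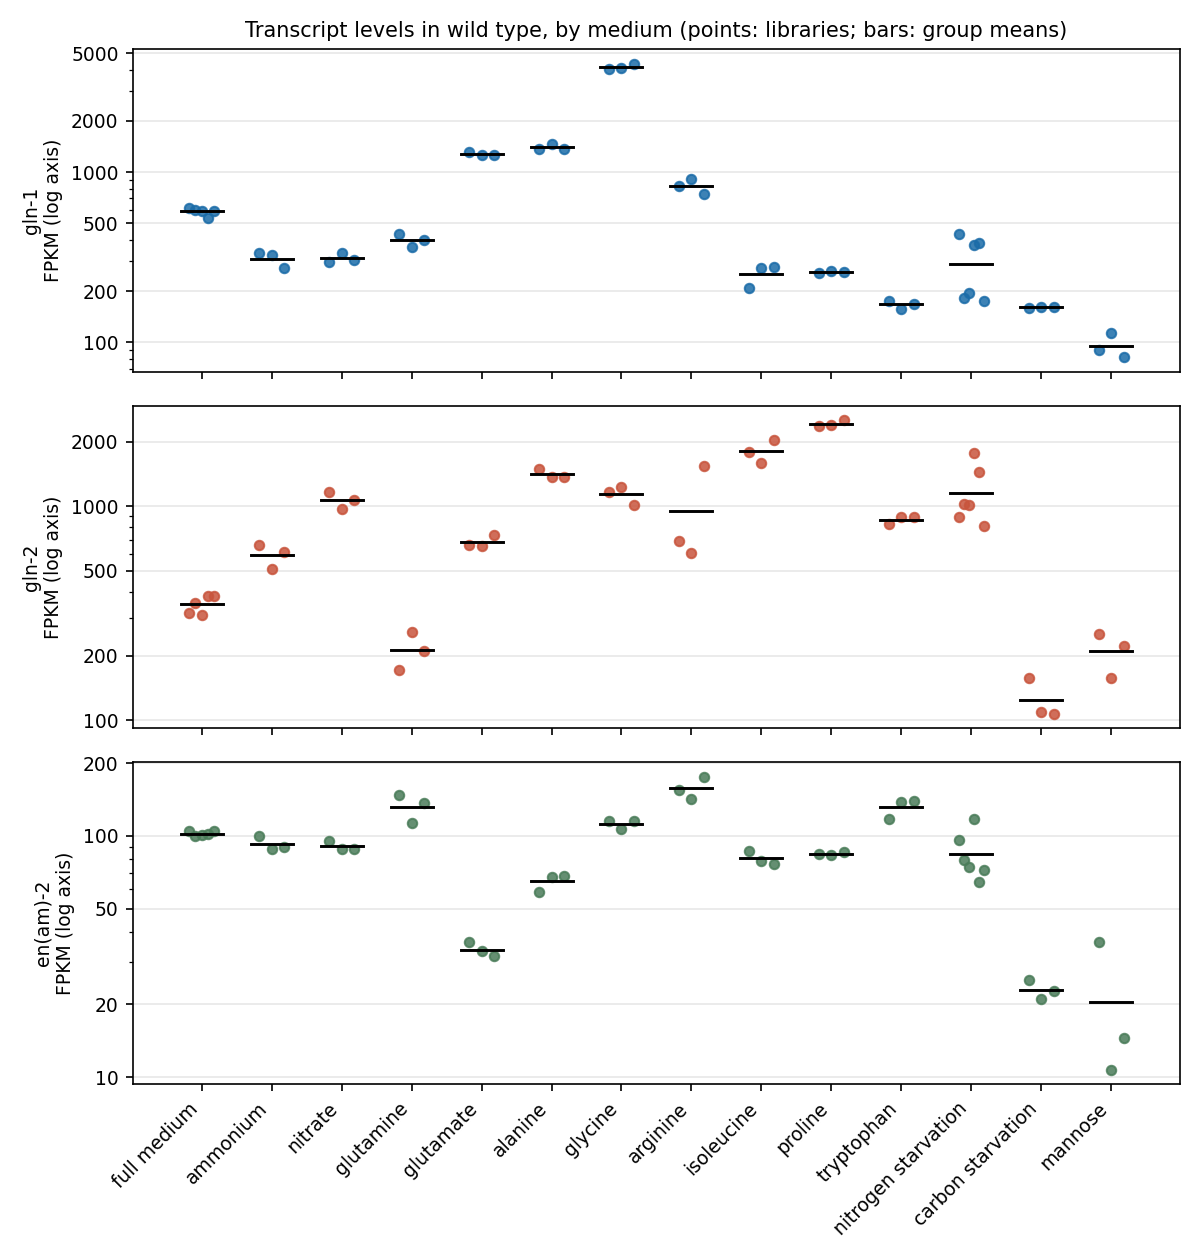
FPKM of gln-1, gln-2 and en(am)-2 in the 47 wild type libraries, on log axes, by medium, with a point per library and a bar at the group mean. gln-1 is highest in glycine (4026 to 4317), gln-2 in proline (2382 to 2527), and en(am)-2 stays between 58.5 and 176 outside glutamate, carbon starvation and mannose.

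en(am)-2, the glutamate synthase gene, was steadier, with no rise and 3 falls in 13 media. In full medium it was at 105, 99.5, 101, 101 and 104 FPKM. Under carbon starvation it was at 25.3, 21.0 and 22.8, in mannose at 36.3, 10.7 and 14.6, and in glutamate at 36.2, 33.5 and 31.8. The falls were -2.10 without carbon (adjusted p = 1.19e-13), -2.44 in mannose (adjusted p = 2.72e-16) and -1.57 in glutamate (adjusted p = 2.00e-08). In glutamate, the product of glutamate synthase, en(am)-2 was thus 3.02-fold lower while gln-1 was higher. Conidial sums there were 49.4 to 73.8, within the range of full medium. Of the markers, con-8 alone was above it without overlap (8.34 to 9.19 against 2.60 to 4.97).

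The highest en(am)-2 levels in wild type were in arginine (156, 143 and 176 FPKM), glutamine (147, 114 and 137) and tryptophan (118, 138 and 139). They exceeded full medium without overlap, by 0.62, 0.36 and 0.36 on the log2 scale, and did not pass. Alanine (58.5, 67.7 and 68.4) was below it at -0.65 and also did not pass. The order of wild type means was arginine, glutamine, tryptophan, glycine, full medium, ammonium, nitrate, proline, nitrogen starvation, isoleucine, alanine, glutamate, carbon starvation and mannose, with 6 of 13 neighbours separate. Those 6 were tryptophan from glycine, glycine from full medium, nitrate from proline, isoleucine from alanine, alanine from glutamate, and glutamate from carbon starvation.

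How many of the 3 genes passed in a medium can be set against all 8558 genes tested. Against full medium 2 of 3 passed in alanine, where 5.15% of all genes did, 2 in glutamate (5.35%), 1 in nitrate (10.9%), 0 in ammonium (7.81%) and 0 in glutamine (1.13%). Nitrogen starvation had 2 (16.8%), isoleucine 2 (22%), proline 2 (27.3%) and tryptophan 2 (28.6%). The share of all genes was larger still where 1 passed in arginine (32%), 2 in glycine (33.5%), 3 without carbon (36%) and 2 in mannose (39.4%). By an adjusted p alone, with no limit on size, gln-1 and gln-2 differed from full medium in all 13 media and en(am)-2 in 5. The share of all genes at that looser limit is not given here. In each medium it is at least the share above, so these counts cannot be read as particular to the 3 genes. Nor did they all hold in other settings of the limma fit. There the highest adjusted p was 0.166 for gln-1 in arginine and 0.144 in glutamine. For gln-2 it was 0.168 in glutamine and 0.0534 in ammonium, and for en(am)-2 0.0639 in alanine and 0.0944 in arginine. All 0 counts here are limma's at both limits: in glutamine gln-1 (adjusted p = 0.0281) and gln-2 (0.0141), and in ammonium gln-1 (5.49e-06) and gln-2 (8.64e-04), had adjusted p under 0.05.

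**Figure D2:**
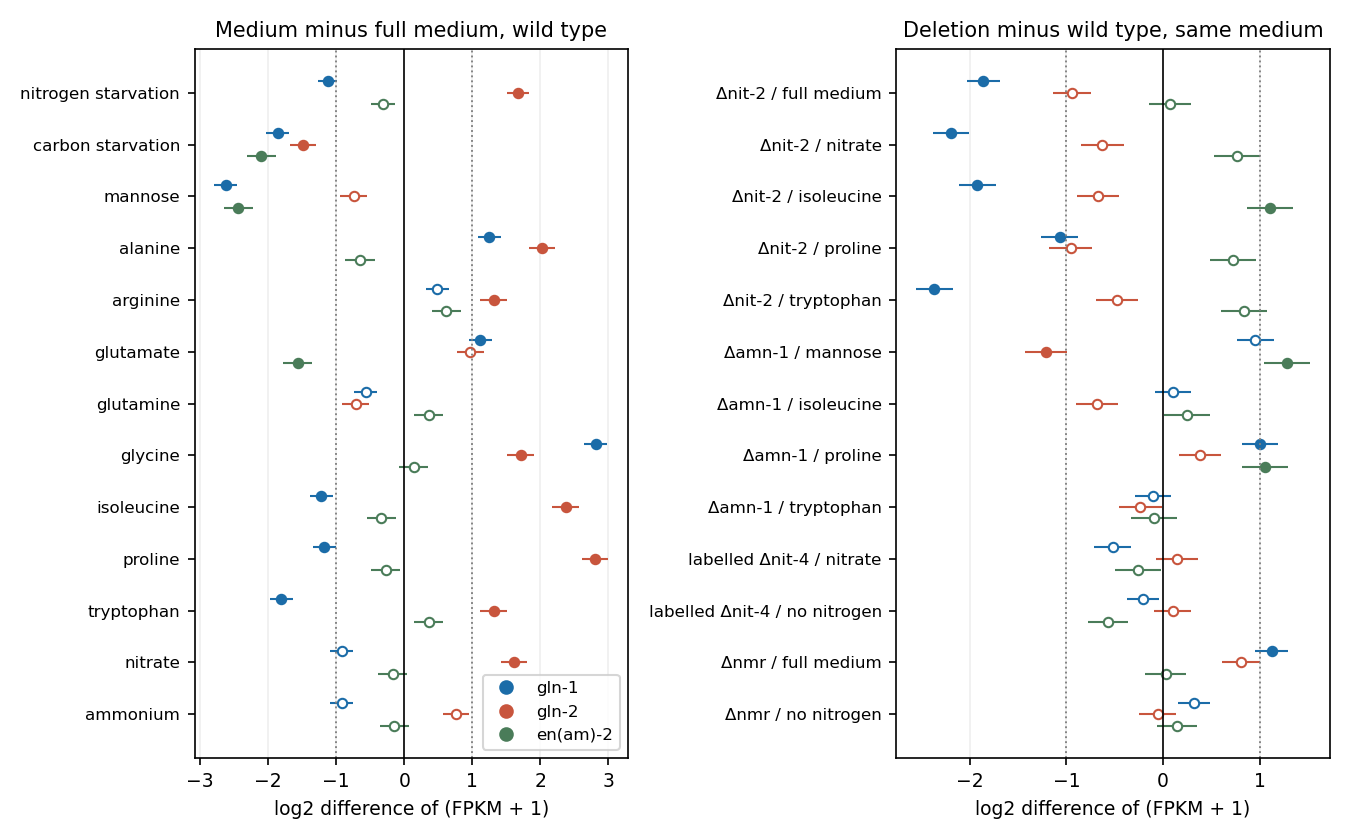
Differences of gln-1 (blue), gln-2 (red) and en(am)-2 (green) on the log2(FPKM + 1) scale, for 13 media against full medium in wild type (left) and 13 comparisons of a deletion strain with wild type in the same medium (right). Bars are standard errors, filled points passed both limits, and dotted lines mark -1 and 1. gln-1 and gln-2 lie on opposite sides of 0 in isoleucine, proline, tryptophan, nitrate, ammonium and nitrogen starvation, and gln-1 is left of -1 in all 5 Δnit-2 comparisons.

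Because ammonium, nitrate, isoleucine, proline and tryptophan libraries shared the higher range of mitochondrial FPKM, they were also compared within that range, with ammonium as the reference. gln-1 did not pass in any of these 4 comparisons (differences 0.00 in nitrate, -0.30 in isoleucine, -0.25 in proline and -0.88 in tryptophan). gln-2 rose in proline (2.04, adjusted p = 7.79e-12) and isoleucine (1.61, adjusted p = 1.92e-08) and was at 0.85 in nitrate and 0.55 in tryptophan. So 1 of 3 genes passed in proline and in isoleucine, where 17.4% and 11.6% of all genes did, and 0 of 3 in nitrate (0.993%) and tryptophan (20.9%), although gln-2 had adjusted p = 0.0151 and 0.0244 there and gln-1 4.96e-05 in tryptophan. en(am)-2 differed from ammonium by -0.19 to 0.50 and did not pass.

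Glutamine and glutamate are the products of these enzymes and were both given at 50 mM. All 3 genes passed between them, where 4.52% of all genes did. gln-1 and gln-2 were lower in glutamine than in glutamate, with a difference of -1.69 for each (adjusted p = 1.77e-10 and 1.37e-08), and en(am)-2 was higher by 1.93 (adjusted p = 3.21e-09). None of them overlapped, and the share of all genes without overlap is not given here. In mannose against carbon starvation 0 of 3 passed (11.2% of all genes), with gln-1 at -0.77 (adjusted p = 6.04e-04), gln-2 at 0.74 (adjusted p = 0.00387) and en(am)-2 at -0.34 (adjusted p = 0.246).

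The 2 glutamine synthetase transcripts stood in different proportions in the libraries of different media. The ratio of gln-2 to gln-1 FPKM was above 1 in 59 of 86 libraries. In full medium it was 0.516, 0.589, 0.523, 0.709 and 0.641, so gln-1 was the more abundant in each. In proline it was 9.25, 9.12 and 9.77, and in glycine 0.291, 0.304 and 0.236. In 7 wild type media every library was above 1 (proline, isoleucine, tryptophan, nitrogen starvation, nitrate, mannose and ammonium) and in 5 every library was below it (carbon starvation, full medium, glutamine, glutamate and glycine). Alanine (1.10, 0.938 and 1.01) and arginine (0.837, 0.670 and 2.09) had libraries on both sides.

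Against full medium, the mean log2 ratio was higher by 3.99 in proline, 3.60 in isoleucine, 3.13 in tryptophan, 2.81 under nitrogen starvation and 2.54 in nitrate, and the difference in glycine was -1.10. A two-sided exact permutation test gave p = 0.0357 in each of the media of 3 libraries that did not overlap full medium, the smallest value that 3 against 5 libraries allow, and p = 0.00433 under nitrogen starvation. After Benjamini-Hochberg adjustment over the 13 media the 9 lowest were 0.0516, so 0 passed at 0.05, although 9 had an exact unadjusted p under it. Those 9 were at the smallest p that their numbers of libraries allow, so they could not pass. The adjusted test therefore cannot decide whether the ratio differed between media. Arginine, with a single library above the others, had an exact p of 0.0714.

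**Figure D3:**
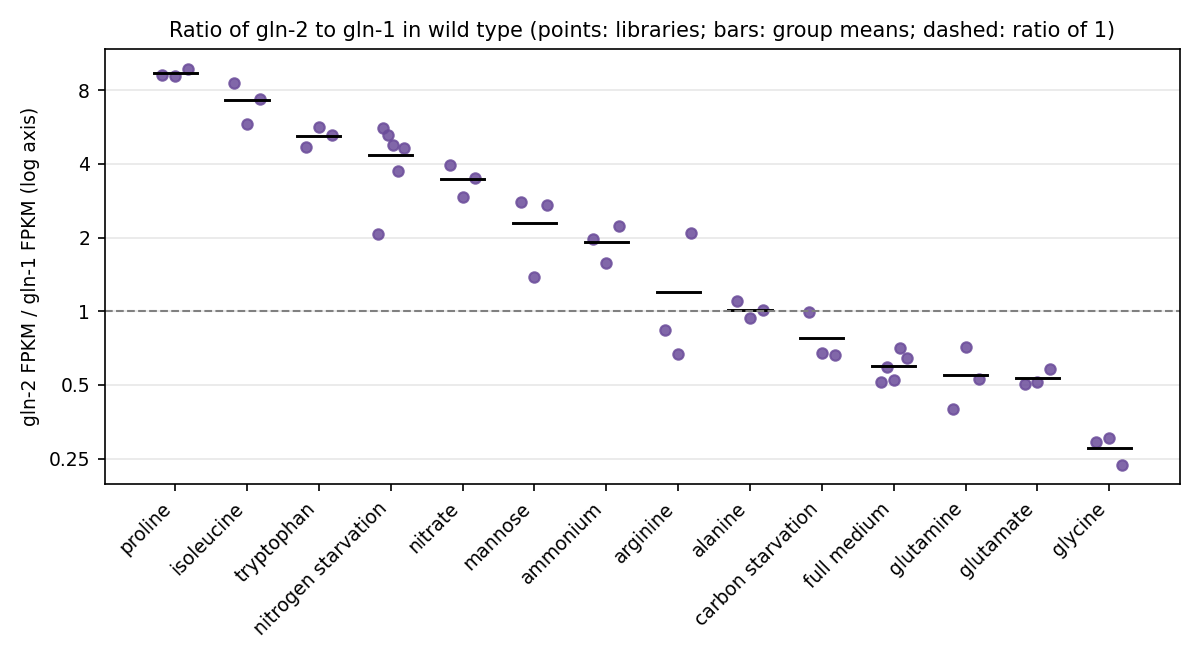
Ratio of gln-2 FPKM to gln-1 FPKM in the wild type libraries on a log axis, with media ordered by their mean, a point per library, bars at the means and a dashed line at 1. The ratio falls from 9.12 to 9.77 in proline to 0.236 to 0.304 in glycine.

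Summed, the 2 glutamine synthetase transcripts varied 18.4-fold over the wild type media, less than gln-1 alone (43.4-fold) and close to gln-2 alone (19.5-fold). The sum was highest in glycine (5282 ± 73.0 FPKM, SD, n = 3) and lowest without carbon (287 ± 27.1). Full medium (937 ± 28.2, n = 5) and ammonium (904 ± 79.7) overlapped, although the ratio of gln-2 to gln-1 was 0.596 ± 0.0817 in the first and 1.93 ± 0.336 in the second. Alanine (2816 ± 70.3) and proline (2695 ± 79.4) also overlapped, with ratios of 1.02 ± 0.0819 and 9.38 ± 0.345.

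Loss of nit-2 lowered gln-1 in all 5 media tested. The Δnit-2 libraries held 175, 157 and 152 FPKM in full medium, 64.9, 67.1 and 69.4 in nitrate, and 70.0, 67.9 and 59.4 in isoleucine. In proline they held 107, 141 and 123, and in tryptophan 28.9, 29.8 and 36.7. Every Δnit-2 library was below every wild type library of its medium. Mean gln-1 was 3.64-fold lower in full medium, 4.63-fold in nitrate, 3.86-fold in isoleucine, 2.095-fold in proline and 5.27-fold in tryptophan.

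On the log2 scale these falls were -1.86 in full medium (adjusted p = 8.46e-14), -2.19 in nitrate (1.25e-14), -1.92 in isoleucine (1.05e-12), -1.07 in proline (4.69e-06) and -2.37 in tryptophan (2.88e-16). The share of all genes that fell was 1.32% in full medium, 5.38% in nitrate, 2.41% in isoleucine, 4.37% in proline and 2.87% in tryptophan. The fall in proline was the smallest and did not pass with per-sample values as deposited (-0.90) or without the proline library numbered 1 of Δnit-2 (-0.97). Its difference from the fall in full medium was 0.79 (SE 0.25, adjusted p = 0.0113), under the size limit, and the falls in nitrate, isoleucine and tryptophan differed from that in full medium by -0.33, -0.06 and -0.51, with adjusted p of 0.366, 0.906 and 0.132.

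gln-2 in Δnit-2 was lower than in wild type in each medium without overlap, by less than 1 on the log2 scale. It was at 168, 196 and 179 FPKM in full medium (difference -0.94), 543, 826 and 731 in nitrate (-0.63), and 1259, 957 and 1205 in isoleucine (-0.67). In proline it was at 1818, 1123 and 963 (-0.96) and in tryptophan at 678, 556 and 641 (-0.48). Its adjusted p was under 0.05 in 4 of 5 media and 0.0816 in tryptophan. In other settings of the limma fit it reached 0.123 in isoleucine and 0.136 in nitrate. The shares of all genes at that limit alone, or without overlap between the strains, are not given here. The difference in full medium passed at -1.01 under median-ratio scaling, and that in proline at -1.23 without the Δnit-2 library numbered 1. In Δnit-2, every gln-2 value in proline, isoleucine, tryptophan and nitrate was above those in full medium. This comparison of media within Δnit-2 was not tested, and its share of all genes without overlap is not given either. These media shared the higher range of mitochondrial FPKM and full medium did not, and Δnit-2 was not grown in ammonium.

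en(am)-2 in Δnit-2 was at 148, 154 and 164 FPKM in nitrate, 185, 145 and 201 in isoleucine, and 183, 109 and 139 in proline. In tryptophan it was at 303, 234 and 184. These 4 groups lay above wild type without overlap, and in full medium (110, 109 and 103) the groups overlapped. The rise in isoleucine passed (1.11, adjusted p = 2.38e-04). The differences in nitrate (0.77), proline (0.72) and tryptophan (0.84) were under the size limit, with adjusted p of 0.00742, 0.0104 and 0.00399, and tryptophan passed at 1.02 without its Δnit-2 library numbered 3. In other settings adjusted p reached 0.0956 in proline and 0.0518 in tryptophan. The share of all genes without overlap is not given here. The difference in isoleucine exceeded that in full medium by 1.04 (SE 0.32, adjusted p = 0.0160), and this was the only member difference between media to pass in Δnit-2, with 4.64% of all genes passing. It was 0.94, with adjusted p = 0.0559, without the Δnit-2 isoleucine library numbered 3. The same tests against full medium gave 0 of 3 members in nitrate (6.57% of all genes), proline (10.3%) and tryptophan (7.48%), with unadjusted p under 0.05 for en(am)-2 in each of these and for gln-1 in proline and tryptophan.

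Taking either direction, 1 of 3 genes passed in Δnit-2 against wild type in full medium (2.63% of all genes), nitrate (9.01%), proline (9.03%) and tryptophan (6.8%), and 2 in isoleucine (5.2%). The ratio of gln-2 to gln-1 in Δnit-2 was 23.4, 18.7 and 17.5 in tryptophan and 18.0, 14.1 and 20.3 in isoleucine, above every wild type library. It was above wild type without overlap also in nitrate and full medium, and overlapped it in proline. With 3 libraries against 3 an exact two-sided test of the ratio cannot go below p = 0.1, so these are given as values. The conidial sums were lower in Δnit-2 than in wild type without overlap in full medium (20.2 to 23.0 against 33.1 to 113.9), proline (33.5 to 45.8 against 141 to 258) and tryptophan (64.0 to 94.0 against 154 to 365). They were higher without overlap in nitrate (376 to 551 against 141 to 267), and in isoleucine they overlapped (335 to 436 against 405 to 824). The markers did not all move together. In nitrate con-6, con-10 and eas were higher in Δnit-2 and con-8 was lower (12.2 to 17.4 against 33.5 to 35.6). In full medium eas was lower in Δnit-2 and con-8 was higher (5.41 to 6.13 against 2.60 to 4.97), all without overlap. The part of the conidial markers in the Δnit-2 results was not tested.

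**Figure D4:**
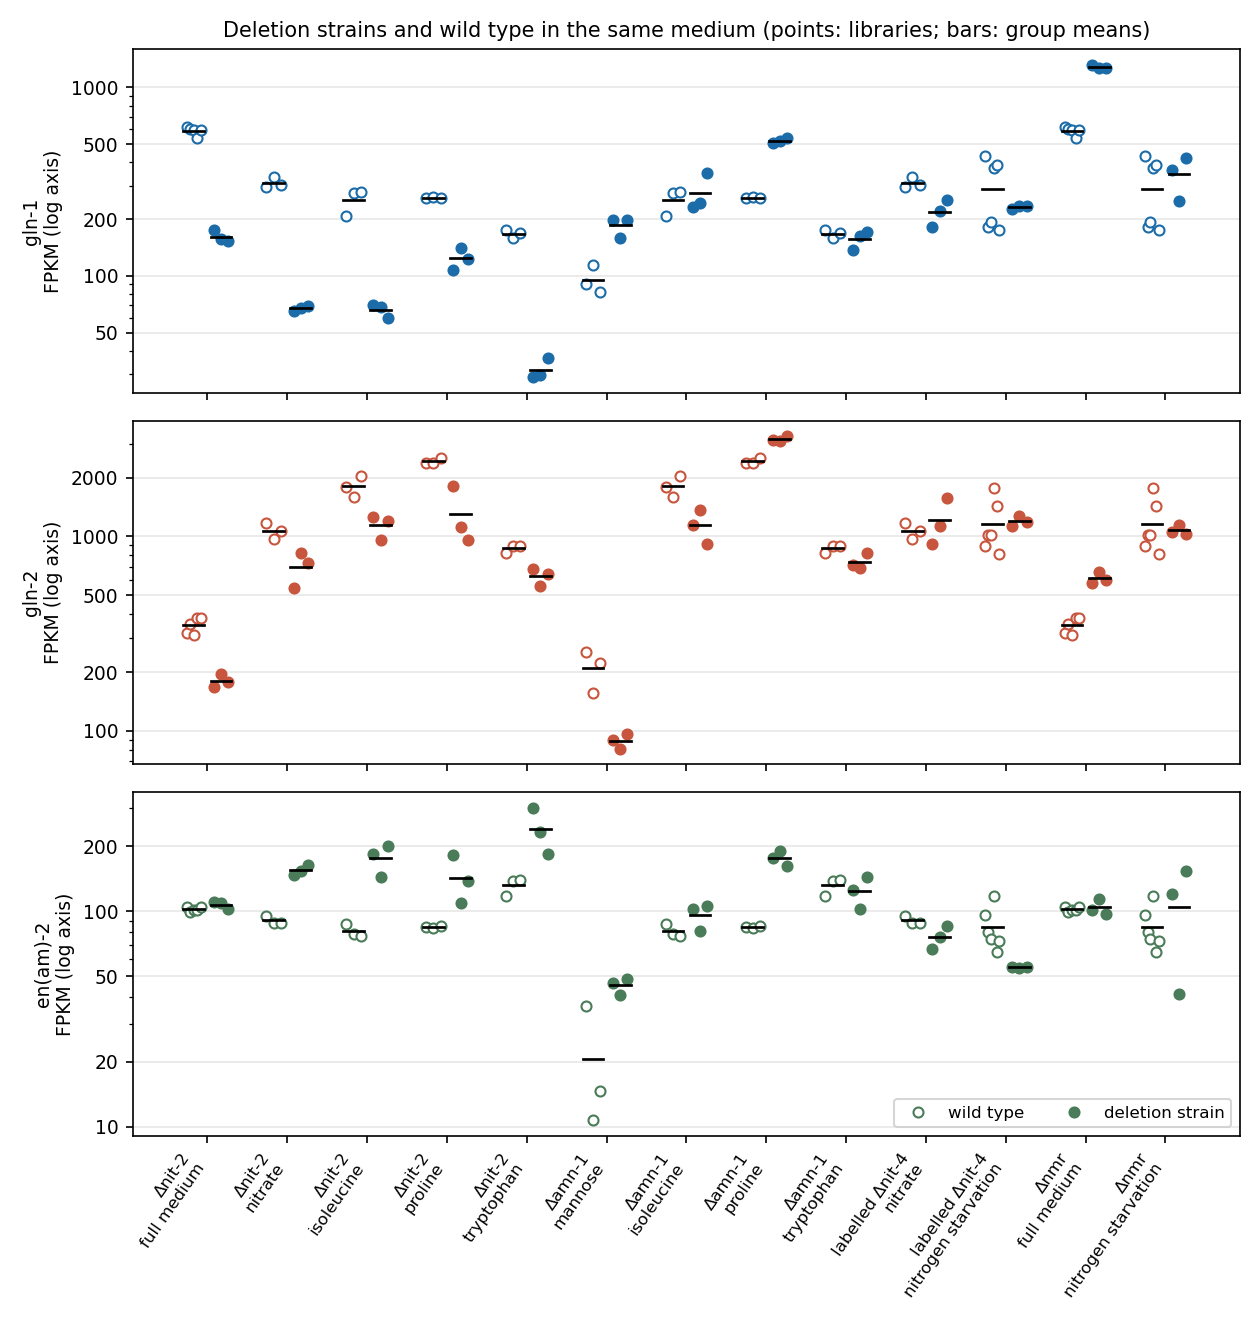
FPKM of the 3 genes in deletion strains (filled) and in wild type in the same medium (open), on log axes, with a point per library and bars at the means. The filled gln-1 points lie below the open ones in all 5 Δnit-2 pairs and above them in Δnmr in full medium (1264 to 1315 against 538 to 615).

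Loss of nmr, whose product restrains NIT2, raised gln-1 in full medium. Its libraries held 1315, 1264 and 1272 FPKM, 2.18-fold above wild type without overlap (1.13, adjusted p = 3.65e-07), the opposite direction to Δnit-2. gln-2, at 579, 653 and 601, was above wild type by 0.81 (adjusted p = 0.00123), and en(am)-2, at 101, 114 and 97.4, by 0.03. Of the 3 genes 1 passed, against 4.41% of all genes. Without nitrogen 0 of 3 passed (5.23%), with gln-1 at 365, 250 and 420 (0.32), gln-2 at 1055, 1139 and 1030 (-0.05) and en(am)-2 at 120, 41.3 and 153 (0.15). No unadjusted p there was under 0.05, and gln-1 had the lowest, 0.0528. The gln-1 difference depended on which of the 2 sets of starved wild type libraries was the reference. In scaled per-sample values it was -0.22 against those labelled 1 to 3 and 0.77 (adjusted p = 1.09e-06) against those with higher labels, where 6.38% and 12.9% of all genes passed. Conidial sums in Δnmr were 112 to 124 in full medium and 216 to 361 without nitrogen. The change of the Δnmr difference from full medium to nitrogen starvation did not pass for any of the 3 genes (6.47% of all genes), and was -0.80 for gln-1 (adjusted p = 0.00768) and -0.86 for gln-2 (adjusted p = 0.0135).

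In Δamn-1, 2 of the 3 genes passed in mannose and 2 in proline. In mannose gln-1 was at 199, 159 and 197 FPKM, gln-2 at 89.7, 81.0 and 96.4, and en(am)-2 at 46.4, 40.9 and 48.4. No library overlapped wild type for any of them. gln-2 fell (-1.21, adjusted p = 3.53e-06) and en(am)-2 rose (1.28, adjusted p = 5.99e-06), and gln-1 was higher by 0.96 (adjusted p = 1.74e-05), under the size limit. The share of all genes that passed both limits was 16.9%, and the share without overlap is not given here. Conidial sums were 23450 to 32010 in Δamn-1 and 7394 to 14580 in wild type, with all 5 markers above 0 in every library of both. eas was higher in Δamn-1 without overlap (19140 to 25180 against 5838 to 8488), and con-6 overlapped. con-8 (164.5 to 247.7 against 270.5 to 738.2), con-10 and con-13 were lower in Δamn-1 without overlap. The part of these markers in this was not tested. The mannose calls were not stable: en(am)-2 was at 0.93 and gln-1 at 1.09 without the wild type library numbered 2, which had the lowest en(am)-2, and with per-sample values as deposited gln-2 was at -0.98 and gln-1 at 1.19.

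In proline Δamn-1 held 508, 519 and 537 FPKM of gln-1 and 178, 190 and 163 of en(am)-2, both above wild type without overlap. gln-1 rose by 1.00 (adjusted p = 2.39e-05), at the limit itself and not past it (0.99) under median-ratio scaling, and en(am)-2 rose by 1.05 (adjusted p = 3.60e-04). The gln-1 value was also just under the limit without the wild type library numbered 1 or the Δamn-1 library numbered 3 (0.997 and 0.982). gln-2 reached 3134, 3098 and 3276, its highest level in any of the 27 groups, above wild type by 0.38 (adjusted p = 0.173). In proline 5.46% of all genes passed. Conidial sums there were 48.7 to 212 in Δamn-1 and 141 to 258 in wild type, which overlapped.

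In isoleucine and tryptophan 0 of 3 genes passed in Δamn-1, with 0.584% and 0.643% of all genes. gln-2 was at 1140, 1362 and 920 FPKM in isoleucine, below wild type without overlap, with a difference of -0.68 (unadjusted p = 0.00288, adjusted p = 0.121), and no other member had an unadjusted p under 0.05 in these 2 media. The difference in mannose was set against those in the other media. gln-2 differed between proline and mannose by 1.59 (adjusted p = 2.05e-05), gln-1 between tryptophan and mannose by -1.06 (adjusted p = 9.50e-04), and en(am)-2 between tryptophan and mannose by -1.38 (adjusted p = 6.90e-04) and between isoleucine and mannose by -1.04 (adjusted p = 0.0102). These were 1 of 3 genes in proline (22% of all genes), 2 in tryptophan (16.9%) and 1 in isoleucine (17.1%). All of them rest on the same 3 wild type and 3 Δamn-1 mannose libraries.

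In the libraries labelled Δnit-4, 0 of 3 genes passed in nitrate (7.2% of all genes) or without nitrogen (5.33%). In nitrate gln-1 was at 181, 219 and 254 FPKM, below wild type without overlap at -0.52 (adjusted p = 0.0254), and gln-2 was at 915, 1136 and 1576 (0.14). en(am)-2 was at 67.0, 75.7 and 85.7 there, also below wild type without overlap, at -0.26 (adjusted p = 0.424). Conidial sums in these nitrate libraries were 1764 to 3178, against 141 to 267 in wild type, and their part was not tested. Without nitrogen en(am)-2 was at 55.4, 54.4 and 55.3, below all 6 wild type libraries at -0.57 (adjusted p = 0.0276), with gln-1 at 227, 236 and 235 (-0.21) and gln-2 at 1130, 1269 and 1185 (0.10). Unadjusted p was under 0.05 for gln-1 in nitrate and en(am)-2 without nitrogen alone. The starved gln-1 difference was -0.79 (adjusted p = 1.15e-06) against the wild type libraries labelled 1 to 3 and 0.20 against those with higher labels, with 10.3% and 5.63% of all genes passing, whereas that of en(am)-2 was -0.73 and -0.59. The difference between the 2 media passed for 0 of 3 genes (2.19% of all genes), with unadjusted p of 0.213 for gln-1, 0.876 for gln-2 and 0.319 for en(am)-2.

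The genes that supply or use the same pools were read from a list of 9: am and gdh-1 (NADP- and NAD-dependent glutamate dehydrogenase), nit-3 and nit-6 (nitrate and nitrite reductase), and arg-2, arg-3, pyr-3, trp-1 and asn-2, whose enzymes take nitrogen from glutamine. In proline 1 of 9 rose and 7 fell, where 14.6% of all genes rose and 12.7% fell, with a median difference of -2.01 against 0.05 over all genes. In glycine 4 rose and 3 fell, against 19.5% and 14% of all genes (median -0.61 against 0.08). There gdh-1 rose by 5.11 and arg-2, arg-3 and trp-1 by 1.68, 1.44 and 1.55, while am fell (-1.16). In mannose 1 rose and 7 fell, against 21.8% and 17.6% (median -4.25 against 0.14). There am was at 4.83 ± 1.51 FPKM against 1463 ± 146 in full medium, and gdh-1 rose by 7.26.

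In Δnit-2 the list gave 0 rises and 3 falls in full medium, 0 and 3 in nitrate, 2 and 1 in tryptophan, 1 and 2 in isoleucine, and 3 and 2 in proline. Of all genes, 1.31% rose and 1.32% fell in full medium, 3.63% and 5.38% in nitrate, 3.93% and 2.87% in tryptophan, 2.79% and 2.41% in isoleucine, and 4.66% and 4.37% in proline. am fell in all 5, as gln-1 did, with differences of -2.06 in full medium, -1.75 in nitrate, -2.44 in tryptophan, -2.09 in isoleucine and -1.83 in proline. arg-2, the small subunit of the arginine-specific carbamoyl-phosphate synthetase, rose in isoleucine (1.48), proline (1.86) and tryptophan (1.72). In Δnmr in full medium 2 rose, gdh-1 (2.11) and nit-3 (2.60), and 0 fell, against 2.31% and 2.09% of all genes.

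Over the 27 group means of log2(FPKM + 1), Pearson's r was 0.20 between gln-1 and gln-2, -0.10 between gln-1 and en(am)-2 and 0.44 between gln-2 and en(am)-2. Spearman's rho, which uses ranks, was 0.175, -0.131 and 0.12 in the same order. The groups share media and strains and are not independent, so no p is given. gln-1 had an r of 0.62 with am and 0.66 with nit-2, the latter low in its own deletion by construction, and en(am)-2 had -0.67 with gdh-1. The 5 genes of at least 10 FPKM most like gln-1 were NCU01246 (0.86), ppt-1 (0.81), NCU00227 (0.80), NCU00956 (0.80) and the merged entry of NCU00149 and his-7 (0.78). Those most like gln-2 were NCU08027 (0.88), NCU00263 (0.86), NCU07923 (0.85), NCU08648 (0.85) and NCU07503 (0.85). For en(am)-2 they were the merged entry of NCU09075 and NCU09076 (0.85), pro-1 (0.85), arg-4 (0.84), thr-4 (0.83) and NCU05985 (0.82).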

How the data were processed

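The authors deposited FPKM values (with bounds) for every one of the 86 samples, and a table that joins them. HISAT2 2.1.0, Cufflinks 2.2.1 and Cuffnorm 2.2.1 are named in the submitters' processing notes, and the build and strand options were not given in the sources used here. The reference gene table (assembly NC12) held 9757 of 9758 identifiers, with equal loci for 99.9%. Merged genes made up 153 joint entries, none of them a member. Joint columns were sample FPKM times a factor (log2 -0.458 to 0.292), and in 51 of them the number was not that of the label, so columns were used by group and left-out libraries carry the joint number. Label numbers were used with the per-sample values alone.

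As FPKM are no counts, count models were avoided. Fragment numbers derived from the bounds were whole (within 0.05, below 20 fragments) in 78.3% of cases. For gln-2, with 2 transcripts, they ran only from 1893 to 4398, although its FPKM ran from 81.0 to 3276. The bounds are therefore not a plain measure of counting error for every gene, and they do not cover the spread between replicates. Of 100 replicate pairs 0 were identical. Tests used limma 3.58.1 (under R 4.3.3) and log2(FPKM + 1), a scale that understates changes of low genes. Over 8558 genes a mean was fitted per group from all libraries, with a trended prior (59 residual and 3.73 prior degrees of freedom), and p was adjusted by Benjamini-Hochberg within each of 41 comparisons. Adjusted p-values of genes come from limma throughout. The fit was tested on simulated data. log2 ratios of gln-2 to gln-1 had an exact permutation test. Other tools were Python 3.11.15 with scipy 1.17.1, pandas 2.3.3, numpy 2.4.6 and matplotlib 3.10.9. Fold changes are ratios of group mean FPKM.

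The members, lists and tests were chosen with earlier results of these data known. Named genes were the 3 members in every comparison, 9 pathway genes, the deleted regulators and the 5 genes most like each member, with 5 conidial markers beside results. A planned search for GATA motifs was not run, as promoter and protein sequences were not used here. Alternatives were a pseudocount of 0.1, no low-value filter, median-ratio scaling, per-sample values, a fit of the compared groups alone, a replicate block, wild type libraries by label number, and leaving out each library.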

Additional observations from a re-analysis of the deposited data

Results flagged for a closer look

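The wild type library of full medium with 538 FPKM of gln-1 (537.73) lay further below the other 4 than Dixon's critical value for 5 libraries allows. It was the only such case in 8 groups of values tested, and chance flags about 1 in 20 groups.

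The effect of a deletion differed between media, by limma's test of the difference itself, in 5 cases. en(am)-2 was raised more by loss of nit-2 in isoleucine than in full medium (difference 1.04). For Δamn-1, the en(am)-2 difference from wild type was lower in isoleucine than in mannose (-1.04) and lower in tryptophan than in mannose (-1.38), that of gln-1 was lower in tryptophan than in mannose (-1.06), and that of gln-2 was higher in proline than in mannose (1.59).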

How the results depend on the processing

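Of the 123 member differences, 0 reversed direction after passing. All 123 kept their side of the limits with a pseudocount of 0.1 or no low-value filter. Median-ratio scaling moved gln-2 in Δnit-2 in full medium past the limit (-1.01) and gln-1 in Δamn-1 in proline below it (0.991). With per-sample values as deposited, calls were lost for gln-1 under nitrogen starvation (-0.868), gln-1 in Δnit-2 in proline (-0.896) and gln-2 in Δamn-1 in mannose (-0.976), and gained for gln-2 in glutamate (1.09), gln-1 in nitrate (-1.16) and ammonium (-1.17), gln-1 in Δamn-1 in mannose (1.19) and its difference between isoleucine and mannose (-1.09). The split of higher and lower calls over all genes moved by over 10 points in 23 of 41 comparisons there. With only the groups compared, en(am)-2 in Δamn-1 between isoleucine and mannose lost its call (-1.04, adjusted p = 0.102).

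Same-numbered samples share only a number: correlations of their deviations ran from -0.343 to 0.403, and in 0 of 32 comparisons was every pair over 0.1. With the replicate block, gln-2 in glutamate passed (1.11) and en(am)-2 in Δamn-1 in mannose (1.29, adjusted p = 0.064), gln-1 in Δamn-1 in proline (0.989) and en(am)-2 in Δamn-1 between isoleucine and mannose (-1.05) did not. The block moved the share of all genes called by over 1.5 times in 9 of 41 comparisons. The same fit without the block, added after seeing the data, changed gln-2 in Δnit-2 in full medium (-1.01), gln-1 in Δamn-1 in proline (0.989) and en(am)-2 between isoleucine and mannose (-1.05). Wild type labels 1 to 3 gave gln-1 under nitrogen starvation -0.669 and gln-2 in glutamate 1.11, and labels above 3 gave gln-2 in mannose -1.03 and in Δnit-2 in full medium -1.19.

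Leaving out each library in turn changed a call in 14 differences, with these ranges: gln-2 in glutamate 0.917 to 1.00, in arginine 0.898 to 1.57, in Δnit-2 in proline -1.23 to -0.768 and in Δamn-1 between tryptophan and mannose 0.833 to 1.18. gln-1 ran from -1.26 to -0.999 under nitrogen starvation and -1.17 to -0.971 in Δnit-2 in proline, and in Δamn-1 from 0.854 to 1.09 in mannose, 0.982 to 1.02 in proline, -1.04 to -0.744 between isoleucine and mannose and -1.19 to -0.957 between tryptophan and mannose. en(am)-2 ran in Δamn-1 from 0.935 to 1.77 in mannose and -1.53 to -0.691 between isoleucine and mannose, and in Δnit-2 from 0.658 to 1.02 in tryptophan and 0.940 to 1.18 between isoleucine and full medium. The arginine log2 ratio ran from 0.341 to 1.16. The causes were not tested.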
